A study of Mus musculus with 6 samples.

Results

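The proteasome is the particle that degrades most short-lived proteins of a cell, and its genes were described here in the RM-1 line of mouse prostate cancer. The members are all protein-coding rows of the deposited gene table whose symbol starts with Psma to Psmg followed by a digit: 50 of 55487 rows, or of 21936 protein-coding rows. They were grouped by textbook role. RM-1 cells carrying a lentivirus for Bhlhe22, a basic helix-loop-helix transcription factor (Bhlhe22 cells), were compared with RM-1 cells carrying a blank lentiviral vector (vector cells), with 3 RNA-seq libraries in each group. Both groups are the same line and both carry a lentivirus. The sources used here do not give the promoter of the transgene or whether the cells were a clone or a pool.

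A proteasome holds a barrel-shaped core, the 20S particle, in which 2 outer alpha rings gate the entrance and 2 inner beta rings carry the protease sites. A 19S regulatory particle caps it, and there a base with a ring of ATPases unfolds substrates and a lid removes their ubiquitin chains. Interferon and some immune cells switch on a second set of catalytic beta subunits, which forms the immunoproteasome and changes the peptides that are left for MHC class I. Further genes encode chaperones that assemble the particle and activators that cap the core in place of the 19S particle.

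Counts per library summed to between 15464709 and 25129552. Bhlhe22 itself had 0 counts in each vector library and reached 572, 764 and 717 CPM (depth-scaled counts, on TMM-scaled library sizes) in Bhlhe22 replicates 1, 2 and 3. Bhlhe22 replicate 1 stood apart from the other libraries: it lay at 37.3 on the second principal component (21.1% of the variance), where the other Bhlhe22 libraries lay at -19.2 and -26.1. Across genes, its deviation from the group mean had a Spearman correlation of -0.40 with gene length, against 0.28 and 0.33 in replicates 2 and 3 and -0.07 to 0.09 in the vector libraries. Deviations within a group sum to 0 for each gene, so these values are tied and cannot tell which library carries the trend. Proteasome genes tested have a median length of 3859 bases in the deposited table, against 5535 for all genes tested. Results are therefore given with and without Bhlhe22 replicate 1. Of the epithelial keratins Krt8 and Krt18 were expressed, while the prostate marker Hoxb13 and the basal keratin Krt5 had 0 counts in all 6 libraries. All 10 mesenchymal markers passed the filter on low counts. Separate cultures are not stated for the replicates in the labels, and p-values therefore measure only the spread between these libraries, which may be technical.

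In Bhlhe22 cells the 19S subunit genes Psmd1 and Psmd13, the immunoproteasome genes Psmb9 and Psmb10 and the alpha ring gene Psma1 were lower than in vector cells, and the ATPase gene Psmc2 was higher. The changes ran from 1.23-fold to 1.52-fold lower and to 1.38-fold higher. Thus 6 of 48 proteasome genes tested (12.5%) passed an adjusted p of 0.05 in edgeR's quasi-likelihood test, 1 higher and 5 lower. Among all 14663 genes tested, 19.6% were called, 10.4% higher and 9.28% lower, a larger share than of proteasome genes; this difference was not tested. Their median log2 fold change was -0.08, with 29 genes negative and 19 positive, against 0.01 for all genes. The remaining 2 members, Psma8 and Psmb11, had too few counts to be tested. The groups did not overlap in 16 of the 48 genes (33.3%), 5 higher and 11 lower, beside 40.8% of all genes (20.8% higher, 20.0% lower).

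**Figure D1:**
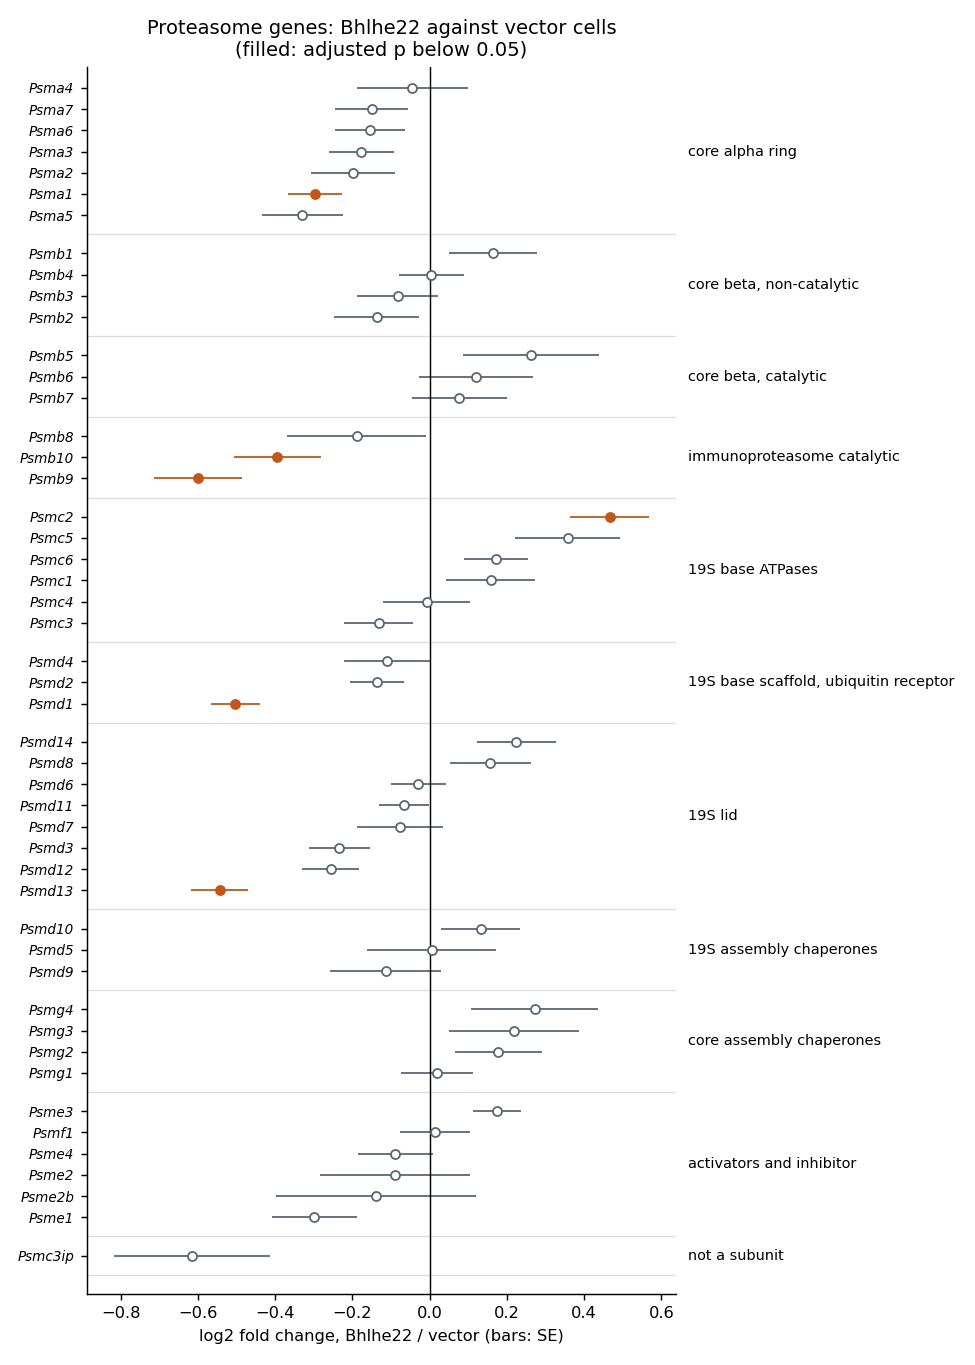
Log2 fold change of each of the 48 proteasome genes tested (Bhlhe22 against vector cells, x axis), with bars of 1 standard error and genes grouped by role. The 6 filled points passed an adjusted p of 0.05: Psmc2 lies to the right of 0 at 0.47, and Psma1, Psmb10, Psmd1, Psmd13 and Psmb9 lie to the left, from -0.30 to -0.60.

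All 7 alpha ring genes tested had negative log2 fold changes, from -0.05 (Psma4) to -0.33 (Psma5), and 1 of them, Psma1, fell. Alpha subunits form the outer rings that open and close the core. Psma1 (ENSMUSG00000030751, chr7:114264606-114276118, minus strand, GRCm38) had 204, 210.2 and 198 CPM in vector replicates 1 to 3 and 175, 158 and 166 CPM in Bhlhe22 replicates 1 to 3. Every Bhlhe22 library was below every vector library. Psma1 was 1.23-fold lower (-0.30 on the log2 scale, SE 0.0691, edgeR adjusted p = 0.0246). This call was lost without Bhlhe22 replicate 2, without replicate 3 and without each vector library in turn, with adjusted p up to 0.104, and it was kept without Bhlhe22 replicate 1.

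Psma5, the alpha gene with the largest fold change, had 115, 108 and 114 CPM in vector cells and 104, 84.2 and 80.3 CPM in Bhlhe22 cells. The groups did not overlap, but the test was not passed (log2 fold change -0.33, SE 0.105, adjusted p = 0.0673). The other alpha genes tested, Psma2, Psma3, Psma4, Psma6 and Psma7, lay between -0.05 and -0.20 with adjusted p from 0.191 to 0.869. Summed over the ring, the level was 395 ± 7.58 FPKM (depth-scaled fragments per kilobase of gene length) in vector cells and 339 ± 38.0 FPKM in Bhlhe22 cells (SD, n = 3 each). Of the Bhlhe22 libraries, replicate 1 stood at 382 FPKM and replicates 2 and 3 at 313 and 320.2 FPKM. Psma8, the alpha subunit of the testis, had 0 counts in all 6 libraries. A count of 0 allows up to 3 counts, or 0.119 to 0.197 CPM per library, for counting error only.

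Psma5 and Psma3 have processed pseudogenes, copies of their spliced transcripts elsewhere in the genome, with rows and counts of their own in this table. Reads may be split between the gene and these rows. Psma5-ps (chr10:85313488-85314439) and Gm12989 (chr4:135715868-135716598) held 54.0% to 60.1% of the summed reads of Psma5 and these 2 copies per library. Over the coding sequence Psma5-ps differs from Psma5 at 8 of 726 bases and Gm12989 at 7 of the 723 bases aligned. Coding bases 515 to 634 of Psma5 and the matching bases of both copies are shown because most of these bases cannot tell the 3 rows apart. They are from GENCODE M21 transcripts (GRCm38), and capitals mark the 5 positions at which any of the 3 differ.
Psma5: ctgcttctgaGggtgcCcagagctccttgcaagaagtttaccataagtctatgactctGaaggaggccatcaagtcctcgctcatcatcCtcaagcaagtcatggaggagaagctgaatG
Psma5-ps: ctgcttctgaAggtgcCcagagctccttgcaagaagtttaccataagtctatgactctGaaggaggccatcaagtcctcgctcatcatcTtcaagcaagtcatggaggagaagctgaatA
Gm12989: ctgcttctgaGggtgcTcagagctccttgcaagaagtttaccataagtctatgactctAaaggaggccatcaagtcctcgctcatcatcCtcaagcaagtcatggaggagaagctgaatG

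Both Psma5 copies fell. Psma5-ps had 101, 95.2 and 81.5 CPM in vector cells and 66.6, 66.1 and 65.1 CPM in Bhlhe22 cells (log2 fold change -0.49, SE 0.0929, adjusted p = 0.0117). Gm12989 had 66.6, 67.5 and 64.2 CPM and then 54.9, 49.2 and 49.1 CPM (-0.37, SE 0.0786, adjusted p = 0.0171). Neither row overlapped between groups. Psma5 with its copies summed to 271 ± 11.9 CPM in vector cells and 206 ± 16.3 CPM in Bhlhe22 cells (SD, n = 3 each). With the reads of aligned copies added to each member, Psma5 passed the test, which made 6 members lower and 1 higher, beside 9.29% and 10.4% of all genes. That setting was chosen after the data were seen. Which locus the reads came from cannot be told from this table.

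For Psma3 the row of a copy held still more of the reads. Gm13835 (chr6:31141979-31142663) held 71.1% to 74.7% of the summed reads of the pair, and it is identical to Psma3 over 665 of 665 aligned coding bases, 86.6% of the coding sequence. Gm13835 had 208, 217 and 204 CPM in vector cells and 235, 174 and 184 CPM in Bhlhe22 cells (-0.09, SE 0.118, adjusted p = 0.656). Its Bhlhe22 values lay on both sides of the vector values. Psma3 alone had 78.9 to 83.8 CPM in vector cells and 67.2 to 79.5 CPM in Bhlhe22 cells. Its coding bases 104 to 223 are shown since the copy has the same letters throughout.
Psma3: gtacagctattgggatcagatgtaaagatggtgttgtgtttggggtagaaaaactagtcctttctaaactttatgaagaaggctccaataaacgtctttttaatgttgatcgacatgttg
Gm13835: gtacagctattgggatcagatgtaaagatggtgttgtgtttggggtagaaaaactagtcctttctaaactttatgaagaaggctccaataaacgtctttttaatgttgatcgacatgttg

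In all, 15 members had 29 pseudogene or near-copy rows of at least 90% identity over at least 200 bases. Counts on a copy reached 5% of the member's own in 5 members: Psma3, Psma4, Psma5, Psmb3 and Psmc1. Outside Psma3 and Psma5 the largest such share was 9.48%, for Gm6467 beside Psmb3. Levels of these 5 genes are therefore uncertain by the size of their copies.

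**Figure D2:**
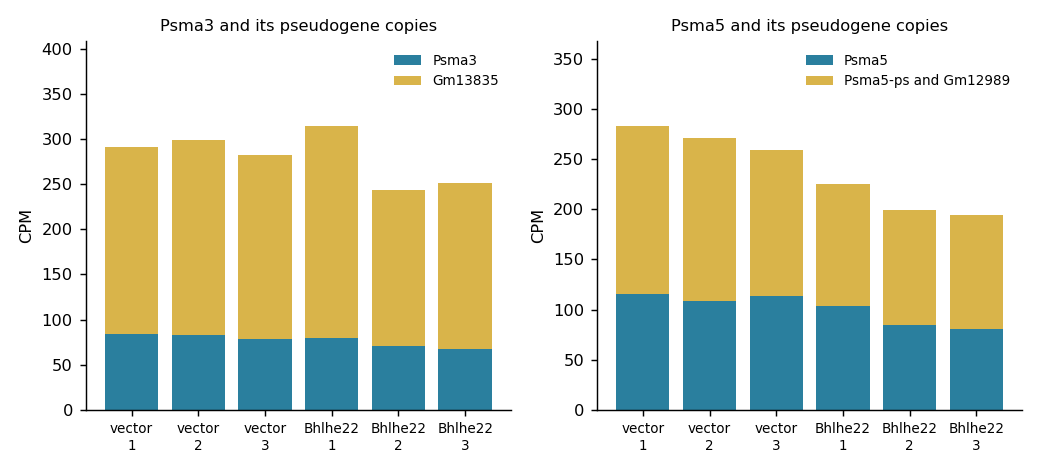
CPM in each of the 6 libraries (x axis) for Psma3 and Psma5 (blue, lower part of each bar) and for their pseudogene copies (yellow, upper part), with CPM on the y axis. Copies make up 71.1% to 74.7% of the Psma3 bars and 54.0% to 60.1% of the Psma5 bars; the whole Psma5 bars are lower in all 3 Bhlhe22 libraries, while the Psma3 bar of Bhlhe22 replicate 1 is the highest of its panel.

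None of the 4 beta subunits without a protease site passed the test with all libraries. Psmb1, Psmb2, Psmb3 and Psmb4 complete the inner rings, and their log2 fold changes lay between -0.14 and 0.16 with adjusted p from 0.363 to 0.982. Psmb1, the one with the largest fold change, had 278, 252 and 269 CPM in vector cells and 351, 266 and 278 CPM in Bhlhe22 cells (0.16, SE 0.114, adjusted p = 0.363). Only replicate 1 stood clear of the vector range. Psmb4 had the highest FPKM of all members in vector cells, 137 ± 5.06 FPKM, beside 135 ± 11.6 FPKM in Bhlhe22 cells (SD, n = 3 each).

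The constitutive protease subunits did not pass the test either. Psmb6 carries the caspase-like site, Psmb7 the trypsin-like site and Psmb5 the chymotrypsin-like site. Psmb5 had 158, 136 and 172 CPM in vector cells and 237, 172 and 149.9 CPM in Bhlhe22 cells (0.26, SE 0.175, adjusted p = 0.344). Psmb6 had 181, 147 and 161 CPM and then 216, 166 and 149 CPM (0.12, SE 0.148, adjusted p = 0.626). Psmb7 had 208, 201 and 223 CPM and then 261, 217 and 188 CPM (0.08, SE 0.122, adjusted p = 0.712). In each of the 3 genes Bhlhe22 replicate 1 was the highest of the 6 libraries and replicate 3 lay within or below the vector range. Without replicate 1 their log2 fold changes were 0.05, -0.06 and -0.06.

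Of the immunoproteasome genes, Psmb9 and Psmb10 fell and Psmb8 did not pass the test. Psmb9 (ENSMUSG00000096727, chr17:34181987-34187764, minus strand), which replaces Psmb6, had 21.8, 22.1 and 23.3 CPM in vector cells and 16.8, 14.7 and 13.0 CPM in Bhlhe22 cells. The groups did not overlap, and the gene was 1.52-fold lower (-0.60 on the log2 scale, SE 0.115, edgeR adjusted p = 0.0122). The call was lost without vector replicate 3 (adjusted p = 0.0566) and kept without each of the other 5 libraries. Psmb9 shares 5.79% of its exon bases with Tap1, which lies on the other strand. Psmb8 shares 14.7% with Gm20496 and Psmb7 11.8% with Nek6, both on the other strand, and Psmb5 12.1% with Mir686 on the same strand. Of all members, 10 share more than 5% of their exon bases with another gene. The sources used here do not say whether counting used strand.

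Psmb10 (ENSMUSG00000031897, chr8:105935735-105938444, minus strand), which replaces Psmb7, had 44.5, 47.6 and 49.6 CPM in vector cells and 41.1, 35.3 and 31.5 CPM in Bhlhe22 cells. All Bhlhe22 libraries were below all vector libraries, by little in replicate 1. The log2 fold change was -0.39 (SE 0.113) and the adjusted p of 0.0497 was just under the threshold. The call was lost in 5 of the 6 fits that leave out 1 library (adjusted p up to 0.158) and kept only without Bhlhe22 replicate 1 (-0.51, adjusted p = 0.0028). Psmb8, which replaces Psmb5, had 75.3, 86.7 and 84.0 CPM in vector cells and 94.6, 61.9 and 59.5 CPM in Bhlhe22 cells (-0.19, SE 0.180, adjusted p = 0.512). Replicate 1 was the highest of all 6 libraries and the other 2 Bhlhe22 libraries were the lowest. Without replicate 1, Psmb8 was lower (-0.44, SE 0.0719, adjusted p = 0.00295). This was its 1 call in 23 alternative fits, and with another library left out its adjusted p reached 0.830. Psmb11, the thymus form, had 1 count in vector replicate 3 and 1 in Bhlhe22 replicate 2.

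**Figure D3:**
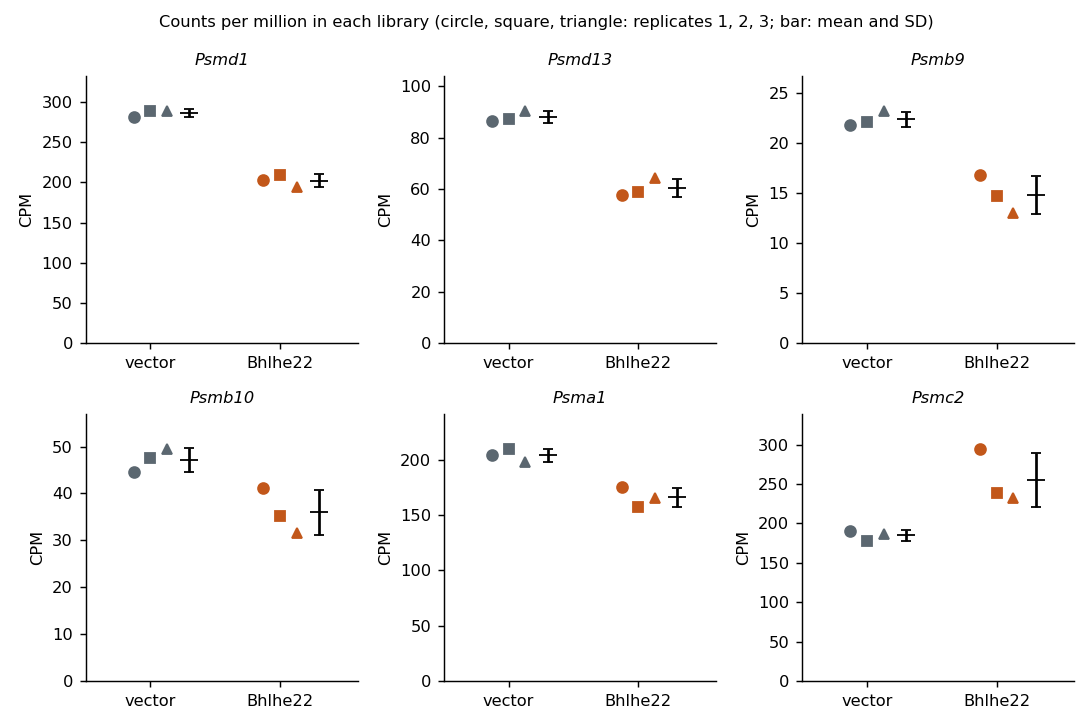
CPM of the 6 proteasome genes that passed the test in each library (circles, squares and triangles are replicates 1, 2 and 3 in vector and Bhlhe22 cells), with the group mean and SD beside them. Psmc2 is higher in all Bhlhe22 libraries and Psmd1, Psmd13, Psmb9, Psmb10 and Psma1 are lower; the gap is narrowest for Psmb10, with 41.1 against 44.5 CPM.

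Since each immunoproteasome subunit takes the place of 1 constitutive subunit, their ratio was taken within each library. The Psmb9 level was 5.38%, 6.70% and 6.42% of the Psmb6 level in vector cells and 3.46%, 3.94% and 3.88% in Bhlhe22 cells, on the FPKM scale. The Psmb10 level was 18.8%, 20.8% and 19.5% of the Psmb7 level and then 13.8%, 14.3% and 14.7%. For Psmb8 against Psmb5 the values were 13.6%, 18.2% and 14.0% and then 11.4%, 10.3% and 11.3%. In all 3 pairs each Bhlhe22 library was below each vector library, replicate 1 included. Among single genes, the groups did not overlap in 40.8% of all genes tested, and 20.0% were lower in this way. The share among ratios of other gene pairs was not computed.

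The mean ratio went from 6.17% ± 0.698 to 3.76% ± 0.260 for Psmb9, from 19.7% ± 1.00 to 14.3% ± 0.445 for Psmb10 and from 15.3% ± 2.57 to 11.0% ± 0.643 for Psmb8 (SD, n = 3 each). On the log2 scale these are differences of -0.71, -0.47 and -0.46. No test was made of the ratios. A ratio does not depend on how libraries are scaled, but a trend on gene length that differs between libraries can move it, since the paired genes differ in length. With each library corrected for such a trend, the log2 fold changes were -0.62 for Psmb9 and 0.09 for Psmb6, -0.42 for Psmb10 and 0.05 for Psmb7, and -0.22 for Psmb8 and 0.25 for Psmb5. The level of a ratio depends on the lengths used: those behind the deposited FPKM exceed the exon lengths of GENCODE M21 in 48 of 49 members, by a median of 1.36 times. With the latter the Psmb10 ratio was 45.0% and 32.6%, the Psmb9 ratio 7.09% and 4.32%, and the Psmb8 ratio 14.2% and 10.2%.

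**Figure D4:**
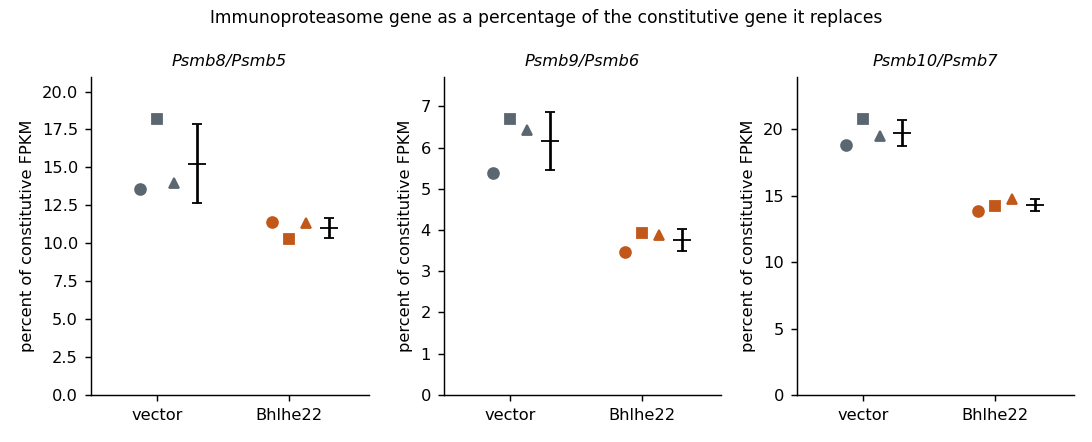
FPKM of each immunoproteasome gene as a percentage of the constitutive gene it replaces (y axis) in the 3 vector and 3 Bhlhe22 libraries (circles, squares and triangles are replicates 1, 2 and 3), with the group mean and SD. In each panel all 3 Bhlhe22 points lie below all 3 vector points, as in 3.46% to 3.94% against 5.38% to 6.70% for Psmb9/Psmb6.

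White blood cells also express immunoproteasome genes, so their markers are given beside these values. Of 12 leukocyte markers 2 passed the filter, Cd68 and Ly6g, and 8 had 0 counts in all libraries, among them Cd3e, Itgam, Adgre1 and Lyz2. Their summed level was 31.3 to 36.6 FPKM in vector cells and 26.7 to 30.9 FPKM in Bhlhe22 cells. Ly6g fell (18.2, 20.1 and 16.3 CPM to 7.95, 7.39 and 6.73 CPM; -1.31, SE 0.122, adjusted p = 0.000728), and Cd68 did not pass the test (0.27, adjusted p = 0.11). The 6 endothelial markers summed to at most 1.05 FPKM in any library, and none of the 3 tested was called. The part of such cells in the results was not tested. In bulk RNA, fewer cells of a type and less RNA per cell cannot be told apart.

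The base of the 19S particle held the member with the smallest adjusted p, Psmd1, which fell, and the one gene that rose, Psmc2. Psmd1 (ENSMUSG00000026229, chr1:86064387-86139151, plus strand) encodes a large scaffold subunit of the base that binds ubiquitin receptors. It had 281, 289 and 289 CPM in vector cells and 203, 209 and 194 CPM in Bhlhe22 cells. The gap between the groups was far wider than the spread within them, and Bhlhe22 replicate 1 lay between the other Bhlhe22 libraries. Psmd1 was 1.42-fold lower (-0.50 on the log2 scale, SE 0.0638, edgeR adjusted p = 0.00235), and it was called in all 23 alternative fits. With any 1 library left out, its adjusted p was at most 0.0196.

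The other base scaffold, Psmd2, had lower values in all Bhlhe22 libraries (351, 364 and 375 CPM to 332, 314 and 347 CPM) without passing the test (-0.14, adjusted p = 0.222). The ubiquitin receptor Psmd4 was at 133 ± 8.78 and 124 ± 17.8 CPM (SD, n = 3 each; adjusted p = 0.548).

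Psmc2 (ENSMUSG00000028932, chr5:21785283-21803787, plus strand), 1 of the 6 ATPases of the base, rose. It had 191, 178 and 186 CPM in vector cells and 295, 239 and 233 CPM in Bhlhe22 cells. The groups did not overlap, and replicate 1 was the highest. Psmc2 was 1.38-fold higher (0.47 on the log2 scale, SE 0.103, edgeR adjusted p = 0.0201). Without Bhlhe22 replicate 1 it remained higher (0.34, SE 0.0481, adjusted p = 0.00141). The call was lost without each vector library in turn, with adjusted p up to 0.0877.

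The remaining ATPases did not pass the test, with log2 fold changes from -0.13 (Psmc3) to 0.36 (Psmc5). Psmc5 had 118, 115 and 129 CPM in vector cells and 188, 142 and 132 CPM in Bhlhe22 cells (SE 0.137, adjusted p = 0.115). Psmc6 also had no overlap between groups (186, 196 and 187 CPM, then 237, 201 and 203 CPM; 0.17, adjusted p = 0.195). So 3 of 6 ATPase genes had every Bhlhe22 library above every vector library, beside 20.8% of all genes; whether these shares differ was not tested. Their median log2 fold change was 0.16, and 0.05 without replicate 1. The base thus held Psmd1 and Psmc2, partners in 1 particle, with changes in opposite directions in all 3 Bhlhe22 libraries.

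In the lid, Psmd13 fell and 7 other genes did not pass the test. Psmd13 (ENSMUSG00000025487, chr7:140881968-140898643, plus strand) encodes a structural subunit of the lid. It had 86.3, 87.1 and 90.5 CPM in vector cells and 57.8, 58.9 and 64.4 CPM in Bhlhe22 cells. No library of one group came near the other group. Psmd13 was 1.46-fold lower (-0.54 on the log2 scale, SE 0.0740, edgeR adjusted p = 0.00306), it was called in all 23 alternative fits, and its adjusted p was at most 0.0236 with 1 library left out. Of its exon bases 10.1% overlap Sirt3 on the other strand.

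Among the other lid genes, Psmd12 came closest to the threshold, with 150.4, 153 and 145 CPM in vector cells and 135, 122 and 118 CPM in Bhlhe22 cells (-0.26, SE 0.0749, adjusted p = 0.0522). Psmd3 had lower values in all Bhlhe22 libraries too (246, 225 and 262 CPM to 199, 213 and 212 CPM; -0.23, adjusted p = 0.0801). Psmd14, the enzyme that cuts ubiquitin chains from substrates, had higher values in all Bhlhe22 libraries (170.0, 168 and 158 CPM to 222, 180.1 and 177 CPM; 0.22, adjusted p = 0.17). The log2 fold changes of Psmd6, Psmd7, Psmd8 and Psmd11 lay between -0.08 and 0.16, with overlapping groups.

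Chaperones that assemble the particle did not pass the test. Psmg1, Psmg2, Psmg3 and Psmg4, which guide the assembly of the alpha ring, had log2 fold changes from 0.02 to 0.27. Psmg4 had 16.1, 17.8 and 15.6 CPM in vector cells and 25.2, 18.0 and 16.8 CPM in Bhlhe22 cells (0.27, SE 0.165, adjusted p = 0.299). Here replicate 1 alone stood clear of the other libraries, and so it did for Psmg3 (17.6, 18.2 and 17.6 CPM, then 26.7, 17.9 and 17.7 CPM). Without that library Psmg3 and Psmg4 stood at -0.01 and 0.07. Psmd5, Psmd9 and Psmd10, which escort the base ATPases, lay between -0.11 and 0.13. Psmd10 (gankyrin) had 34.6, 37.8 and 33.9 CPM in vector cells and 43.6, 35.7 and 37.2 CPM in Bhlhe22 cells (0.13, SE 0.102, adjusted p = 0.417).

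No activator or inhibitor gene passed the test. Psme1 and Psme2 encode the interferon-induced activator that pairs with the immunoproteasome. Psme1 had 112, 110.2 and 115 CPM in vector cells and 108, 84.2 and 82.4 CPM in Bhlhe22 cells (-0.30, SE 0.111, adjusted p = 0.105). The groups did not overlap, and replicate 1 lay just below the vector range. Psme2 had 37.7, 31.3 and 38.1 CPM and then 44.5, 28.3 and 28.1 CPM (-0.09, adjusted p = 0.794), and its near-identical gene Psme2b had 0.854 to 1.31 CPM over the 6 libraries. Without replicate 1 Psme1 was lower (-0.44, adjusted p = 0.000484) and so was Psme2 (-0.35, adjusted p = 0.035).

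Psme3, the nuclear activator, had 193, 199 and 189 CPM in vector cells and 219.8, 224 and 212 CPM in Bhlhe22 cells (0.17, SE 0.0628, adjusted p = 0.0961). It did not overlap between groups. Psme4, the large activator PA200, and Psmf1, the inhibitor PI31, had log2 fold changes of -0.09 and 0.01. One gene of the symbol pattern is no subunit: Psmc3ip encodes a partner of the recombinase in meiosis. It had 8.98, 9.57 and 13.2 CPM in vector cells and 8.48, 5.89 and 6.45 CPM in Bhlhe22 cells (-0.62, SE 0.202, adjusted p = 0.0738). Of the exon bases of Psmc3ip 21.2% overlap Mlx on the other strand.

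The proteasome genes differed among the Bhlhe22 libraries in 1 direction. Bhlhe22 replicate 1 was the highest of the 6 libraries in 26 of 48 genes (54.2%), against 28.0% of all genes tested. Relative to the vector mean, the median of the proteasome genes was 0.12 in that library on the log2 scale and -0.15 and -0.17 in replicates 2 and 3, where all genes tested had medians from 0.00 to 0.02. In 44 of 48 genes replicate 1 was above the mean of replicates 2 and 3, by a median of 0.29, beside 7349 of 14663 genes overall. Replicates 2 and 3 were both below all vector libraries in 27 genes, and in 10 of these replicate 1 was above all vector libraries. The shares of all genes tested with these patterns were not computed, so these counts cannot be read as particular to proteasome genes.

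**Figure D5:**
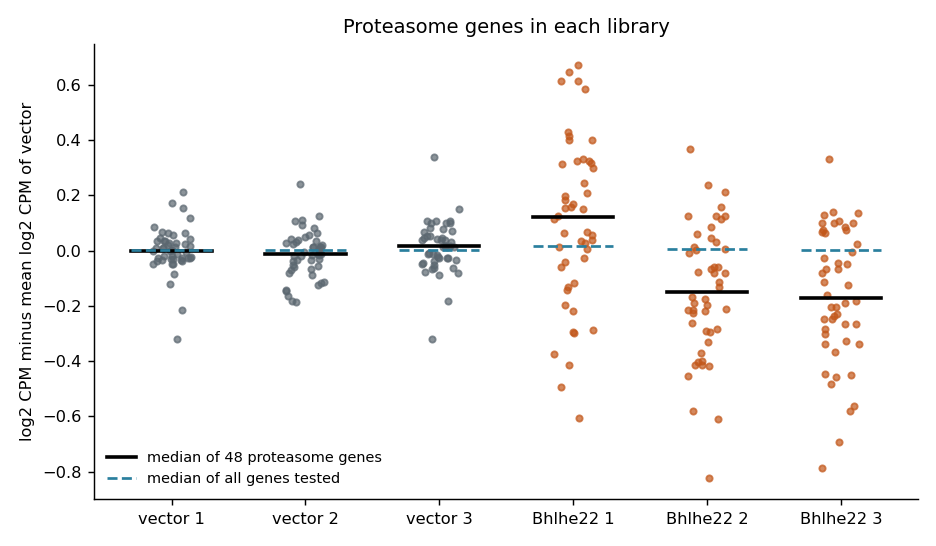
Log2 CPM of the 48 proteasome genes minus their mean log2 CPM in vector cells (y axis) in each library (x axis), 1 point a gene, with the median of the proteasome genes (black) and of all genes tested (dashed). The black line lies at 0.12 in Bhlhe22 replicate 1 and at -0.15 and -0.17 in replicates 2 and 3, while the dashed line stays near 0 in all 6 libraries.

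Without Bhlhe22 replicate 1, 20 of 48 proteasome genes were lower and 2 were higher (Psmc2 and Psme3), with 15.6% and 15.7% of all genes called in these directions. The lower genes were then 6 of 7 alpha genes (all but Psma4), all 3 immunoproteasome genes tested, Psmb3, Psmc3, Psmd1 and Psmd4, the lid genes Psmd3, Psmd7, Psmd12 and Psmd13, Psme1 and Psme2, and Psmc3ip. The constitutive protease genes Psmb5, Psmb6 and Psmb7 and the 7 assembly chaperones were called in neither direction. The median log2 fold change of the members was -0.14. With replicate 2 or replicate 3 left out instead, 3 members were lower and 1 was higher in each fit. In those fits 11.4% and 14.9% of all genes were called in either direction. Which of the Bhlhe22 libraries is nearer to the typical state of these cells was not tested.

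With the replicate number as a block, Psmd1, Psmd13 and Psmb9 were called lower and Psmc2 higher, beside 6.77% of all genes lower and 7.41% higher. With each library corrected for a trend on gene length, 9 members were lower and 2 higher (11.9% of all genes in each direction), the added ones being Psma5, Psmc3ip, Psmd3, Psmd12 and, higher, Psmc5. With a trend on GC content as well, 10 were lower and 2 higher (12.3% and 12.2% of all genes). DESeq2 called 8 lower and 1 higher (11.1% and 11.9% of all genes).

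Genes that work with the proteasome were counted from lists set by role. Of 22 partners and regulators outside the Psm symbols, 4 were higher and 3 lower, beside 10.4% and 9.28% of all genes. Without Bhlhe22 replicate 1 these counts were 6 and 6, beside 15.7% and 15.6% of all genes. Nfe2l1 encodes the transcription factor NRF1, which raises proteasome genes when the particle is inhibited. NRF1 is made active by the enzymes Ngly1, which removes its sugars, and Ddi2, which cuts it. Ddi2 had 97.2, 98.9 and 102 CPM in vector cells and 123, 156 and 162 CPM in Bhlhe22 cells (0.56, SE 0.109, adjusted p = 0.0127). Ngly1 had 34.4, 34.1 and 35.8 CPM and then 42.1, 44.9 and 44.9 CPM (0.34, SE 0.0753, adjusted p = 0.0204). Both were higher in all Bhlhe22 libraries. Both calls were lost without each vector library in turn (adjusted p up to 0.066 and 0.0963), and that of Ngly1 also without Bhlhe22 replicate 2 or 3.

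Nfe2l1 itself had 77.8, 77.1 and 77.5 CPM in vector cells and 163, 90.2 and 91.7 CPM in Bhlhe22 cells. All Bhlhe22 values were above the vector values, replicate 1 by far the most, and the test was not passed (0.57, SE 0.225, adjusted p = 0.125). Without replicate 1 it was higher (0.22, SE 0.0480, adjusted p = 0.00982). Pomp, the chaperone of beta ring assembly, had 71.9, 67.9 and 73.0 CPM and then 79.0, 61.1 and 48.1 CPM (-0.18, SE 0.168, adjusted p = 0.505). Without replicate 1 Pomp was lower (-0.39, adjusted p = 0.0256).

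Ubqln4, a shuttle factor that brings ubiquitinated proteins to the particle, was lower (121, 125 and 121 CPM to 91.9, 97.8 and 101 CPM; -0.34, SE 0.0668, adjusted p = 0.0139). Its groups did not overlap, and the call was lost without Bhlhe22 replicate 2 and without each vector library in turn, with adjusted p up to 0.0684. Further called genes of the list were chosen for naming after their values were seen: Akirin2, which brings proteasomes into the nucleus, was higher (0.28, adjusted p = 0.0282), and the deubiquitinase Uchl5 (-0.53, adjusted p = 0.0265) and the shuttle Ubqln2 (-0.49, adjusted p = 0.0382) were lower. These 3 calls held in 1 or 2 of the 6 fits with 1 library left out.

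None of the 6 ubiquitin and E1 genes passed the test in edgeR, and none had an unadjusted p under 0.05. Without Bhlhe22 replicate 1 the list had 1 lower and 0 higher. Of 11 genes for VCP and its cofactors, 2 were higher and 1 lower, with all-gene shares of 10.4% and 9.28%. Without that library 4 were higher and 1 lower, with 15.7% and 15.6% of all genes. Vcp, the ATPase that pulls ubiquitinated proteins out of complexes and membranes ahead of the proteasome, had 376, 372 and 396 CPM in vector cells and 302, 291 and 291 CPM in Bhlhe22 cells. The groups were well apart, and Vcp was 1.29-fold lower (-0.37, SE 0.0632, adjusted p = 0.00758), also with any 1 library left out (adjusted p up to 0.0453). Its cofactors Nsfl1c (0.46, SE 0.127, adjusted p = 0.0429) and Faf1 (0.26, SE 0.0719, adjusted p = 0.0462) were higher, and with 1 library left out they were called in 2 and 1 of the 6 fits.

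Interferon and antigen processing genes gave 1 call among 19, in the lower direction, where 9.28% of all genes were called. Only some genes of this list share their induction with the immunoproteasome. Without Bhlhe22 replicate 1 the list had 5 lower and 2 higher, where 15.6% and 15.7% of all genes were called. Tap1, the peptide transporter gene next to Psmb9, had 124, 131 and 119.9 CPM in vector cells and 98.2, 94.4 and 102 CPM in Bhlhe22 cells (-0.35, SE 0.0692, adjusted p = 0.0139). The groups did not overlap. This call was lost without vector replicate 1, vector replicate 2 or Bhlhe22 replicate 2 (adjusted p up to 0.0697). Nlrc5, the activator of MHC class I genes, had 109.7, 119 and 113 CPM in vector cells and 104, 138 and 138 CPM in Bhlhe22 cells (0.15, SE 0.118, adjusted p = 0.42). Without replicate 1 Nlrc5 was higher (0.27, SE 0.0538, adjusted p = 0.00767). The list had a median log2 fold change of -0.14.

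Promoters of the members were compared with those of all genes, using the 250 bases before each RefSeq start on GRCm38.p6, for 42 members and 27025 symbols matched, on both strands. The antioxidant response element core TGACNNNGC, the kind of site that NRF1 binds, was in 5 of 42 members (11.9%) and in 10.1% of all promoters. The 5 were Psmb5, Psmb6, Psmc6, Psmd9 and Psmd12. The CCAAT box was in 35.7% of members and 34.5% of all. The E box CANNTG, bound by basic helix-loop-helix factors, was in 52.4% of members and 66.0% of all; its form CAGATG was in 14.3% and 14.5%, and CATATG in 0 of 42 members and 3.47% of all. The interferon response element core GAAANNGAAA was in 7.14% of members and 3.04% of all, and TTCNNNGAA, the gamma-activated site, in 4.76% and 7.18%. Members with the interferon element were Psmb3, Psmd4 and Psmd9, and those with the gamma-activated site were Psmb8 and Psmg1. Psmb8, Psmb9, Psmb10, Psme1 and Psme2 had no interferon element in these windows.

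4 of these windows are shown, less the bases annotated as UTR, with TGACNNNGC or CCAAT (on either strand) in capitals. Psmb5 and Psmb6 are constitutive protease genes with the response element, Psma1 was lower and has 2 CCAAT boxes, and Psmd1, the member with the smallest adjusted p, has neither of these motifs. They lie at chr14:54618023-54618245 (minus strand), chr11:70525107-70525356 (plus strand), chr7:114276119-114276366 (minus strand) and chr1:86064369-86064618 (plus strand). A match is a run of letters and says nothing of binding.
Psmb5: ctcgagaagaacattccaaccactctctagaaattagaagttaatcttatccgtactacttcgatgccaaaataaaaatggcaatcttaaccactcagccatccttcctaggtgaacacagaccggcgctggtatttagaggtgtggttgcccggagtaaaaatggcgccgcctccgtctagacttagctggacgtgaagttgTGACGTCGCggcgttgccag
Psmb6: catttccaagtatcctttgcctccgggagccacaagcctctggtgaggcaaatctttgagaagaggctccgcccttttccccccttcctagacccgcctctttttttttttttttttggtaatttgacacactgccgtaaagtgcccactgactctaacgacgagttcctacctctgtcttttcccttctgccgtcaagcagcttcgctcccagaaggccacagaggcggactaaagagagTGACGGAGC
Psma1: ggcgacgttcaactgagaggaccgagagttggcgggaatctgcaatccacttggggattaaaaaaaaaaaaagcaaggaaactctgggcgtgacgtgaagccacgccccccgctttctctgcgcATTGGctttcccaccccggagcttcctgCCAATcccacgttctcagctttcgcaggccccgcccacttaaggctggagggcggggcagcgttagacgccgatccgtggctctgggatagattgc
Psmd1: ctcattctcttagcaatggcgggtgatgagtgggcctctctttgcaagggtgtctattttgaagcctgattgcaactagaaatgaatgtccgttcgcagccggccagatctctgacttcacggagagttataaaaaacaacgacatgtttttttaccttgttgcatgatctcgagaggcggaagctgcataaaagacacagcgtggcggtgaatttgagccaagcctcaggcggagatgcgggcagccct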

How the data were processed

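RNA-seq of 6 samples was analysed. Per the submitters' processing notes, CASAVA 1.8, HISAT2 2.1.0, StringTie 1.3.4b and edgeR were used with the GRCm38 build; they do not say which step used which tool, or whether counting used strand. The authors deposited raw counts per gene and FPKM values made from the same counts with 1 length per gene, the same in all 6 libraries (largest spread 0.000893% over 10435 genes). Counts were tested with edgeR 4.0.16 in R 4.3.3 (TMM scaling, filterByExpr with a minimum count of 10 and minimum total of 15, robust quasi-likelihood fits, no covariate), with Benjamini-Hochberg adjustment at 0.05 over all 14663 genes tested. Standard errors are the log2 fold change divided by the square root of the F statistic. FPKM served for levels between genes and for ratios, with no test.

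The fit was tested on simulated data. Copies were found with BLASTN on GENCODE M21 transcripts. Alternatives were DESeq2 1.42.0, limma 3.58.1 (voom, and log2 of FPKM plus 1 or 0.1), RLE, upper quartile and library size scaling, other filters, no robust estimation, a replicate block, glmTreat at 1.2-fold, protein-coding genes alone, splines (5 degrees of freedom) on gene length, copies added, and leaving out each library. Splines on GC content and aligned copies were added after seeing the data.

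Given in full are called members, the immunoproteasome genes and those they replace, the member of each class with the largest fold change, the non-subunit, and from each list up to 4 called genes with the smallest adjusted p plus Nfe2l1, Pomp and Nlrc5; some genes this rule names are not reported here. The members and lists were chosen with earlier results of these data known. The lists are proteasome partners, ubiquitin and E1, VCP and cofactors, interferon and antigen processing, and markers of prostate epithelium, mesenchyme, leukocytes and endothelium. Tables and plots used Python 3.11.15, pandas 2.3.3, numpy 2.4.6 and matplotlib 3.10.9.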

Additional observations from a re-analysis of the deposited data

How the results depend on the processing

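None of the 6 called proteasome genes changed direction over the 23 alternatives. Of the 48 tested, 12 took both signs, none of them called with all libraries; among these Psmb6 and Psmb7 were at -0.06 without Bhlhe22 replicate 1. The median log2 fold change of the members ran from -0.14 without Bhlhe22 replicate 1 to -0.01 without Bhlhe22 replicate 3. These shifts were below the spread between replicates, as were those of the 3 subunit ratios over the 9 alternatives run for them. For the ratios, leaving out 1 of 3 libraries or changing the gene lengths cannot exceed that spread. For the median of the members, leaving out 1 of 3 libraries could hardly exceed it, since the library left out is part of that spread. Those alternatives therefore do not test how stable the ratios or the median are. Leaving out 1 library gave 715 to 2345 genes higher and 633 to 2337 lower over all genes (1520 and 1361 with all libraries), 0 to 2 proteasome genes higher and 2 to 20 lower, and 0 to 12 genes of the surrounding lists higher and 1 to 13 lower. The highest counts came without Bhlhe22 replicate 1. Against a 1.2-fold change, 685 genes were higher and 579 lower, with 0 and 2 proteasome genes and 0 and 0 list genes. The length correction gave 2 proteasome genes higher and 9 lower, that for GC content and length 2 and 10, and DESeq2 8 lower; the cause was not tested. No label says that the replicate numbers pair the samples. Same-numbered samples had correlations of 0.0293, 0.0214 and 0.0156 between their deviations, and no sample correlated best with its own number. Such correlations cannot tell whether same-numbered samples shared a culture or a batch. With the replicate block 3 proteasome genes were lower and 1 was higher. In the surrounding lists 1 gene was higher, and Vcp, Ubqln4, Ubqln2, Uchl5 and Tap1 were still called lower. Over all genes 1086 were higher and 993 lower with the block. Leaving out a library lowers the number of samples. Counting depth as a limit was not tested.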
